A study of Mus musculus with 16 samples.

Results

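The age comparison in cultured dermal fibroblasts set 4 arrays of cells from old mice against 4 arrays of cells from young mice. These are all the cultured arrays labelled old or young, 8 of the 16 arrays of the series. All mice were female and of the strain C57Bl/6. The series design gives the young mice as 2 months and the old mice as 18 months of age, with 4 mice per age. No transgene, deletion, drug or other treatment is named for either age. From each mouse, 5000 fibroblasts were profiled at once, giving the in vivo arrays, and 5000 were profiled after a period in culture. RNA was taken up on magnetic beads, amplified for 23 cycles, labelled with biotin and hybridised to an Affymetrix array. The time in culture, the medium, the passage and the way of isolation from the dermis are, in the sources used here, not given. Mice of both ages were killed on each collection day, 2 of each age per day, and the labels do not say which arrays share a day or a mouse. Each array is a bulk measurement of 1 sample of cells, so fewer cells of a type and less RNA per cell cannot be told apart.

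Dermal fibroblasts build and remodel the collagen-rich matrix of the skin. In aged skin they are known to make less collagen and to divide less, and in various organs senescent cells secrete inflammatory proteins and matrix-degrading enzymes. Placing fibroblasts on plastic with serum is known to start a wound-like programme of proliferation, contraction and matrix production. The comparison here asks how much of the difference between the ages is seen in cells that have been through that step.

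In culture, no gene differed between the ages at an adjusted p of 0.05, 0 of 14819 genes tested or 0%, by limma's moderated test with Benjamini-Hochberg adjustment. The smallest adjusted p was 0.997. At an unadjusted p under 0.05 there were 533 genes, 3.6% of those tested, of which 291 were higher and 242 lower in old cells. The values of the ages did not overlap for 305 genes, 2.06% of those tested, 177 with old cells higher and 128 with old cells lower. The same test on the in vivo arrays called 200 genes, 1.35%, of which 135 were higher and 65 lower in old cells. After each array was scaled to an equal 75th percentile, the in vivo split was 94 higher and 120 lower, and culture still gave no called gene. No gene was called in culture under any of the other settings tried, where between 276 and 883 genes had an unadjusted p under 0.05.

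The cultured arrays set bounds on most genes above the control level. Over all genes tested, those below the control level included, the 95% confidence interval of the age difference reached a median of 0.20 to either side on the log2 scale. Of the 11796 genes at or above the control level in at least 1 cultured group, that interval lay wholly within a 2-fold difference in either direction for 11590, 98.3%, and within a 1.5-fold difference for 10875, 92.2%. Again over all genes tested, the median size of the age difference was 0.06 in culture and 0.13 in vivo. The median SD within a group, over the same genes, was 0.13 in culture against 0.18 in vivo, so the replicates in culture were the less variable ones. For the median gene, old and young cultured cells had a like spread, with an SD of 0.12 for each age. The SD was the larger in old cells for 7778 genes, 52.5%. The control level, 4.34, was the 95th percentile of the 12 bacterial poly-A control probe sets. The other 3023 genes tested lay below it in both cultured groups, where a narrow interval sets no bound on a difference.

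The cultured cells carried fibroblast markers at both ages. Col1a1, the main chain of type I collagen, read 12.17, 12.24, 12.20 and 12.19 in the young arrays and 12.25, 12.15, 12.23 and 12.22 in the old arrays. Thy1, a surface protein used to sort dermal fibroblasts, averaged 10.8 ± 0.14 in young cells (SD, n = 4 arrays) and 10.7 ± 0.10 in old ones. The probe set for Pdgfra, a receptor used as a pan-fibroblast marker, was near the control level, at 4.63 ± 0.14 in young and 4.75 ± 0.15 in old cells. The 3′ minus 5′ signal of the actin control probe sets, a measure of RNA integrity, was 0.07 ± 0.04 in young and 0.10 ± 0.07 in old cells (exact permutation test, two-sided, p = 0.657, 70 labelings, smallest possible p 0.0286). For the Gapdh control probe sets it was -0.11 ± 0.06 and -0.15 ± 0.02 (exact permutation test, two-sided, p = 0.257).

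Endothelial and macrophage markers were mostly at or near the control level in the cultured arrays. Keratinocyte markers were mostly above it, and some markers of other cells were well above it. Markers of each list were counted as below the control level by their mean over the 8 cultured arrays. Of 10 endothelial markers, 7 lay below 4.34 by that mean, among them Pecam1, whose 8 values ran from 3.80 to 4.06. The mean of the 10 was 4.20 to 4.30 over the young arrays and 4.14 to 4.34 over the old arrays. The mean of the 9 macrophage and monocyte markers tested ran from 4.45 to 4.6 and from 4.49 to 4.6, with 6 of the 9 below the control level. For the 10 keratinocyte markers tested, of which 2 were below the control level, the mean was 4.85 to 5.02 in young arrays and 4.72 to 4.92 in old arrays. The epidermal keratin Krt14 stayed between 4.45 and 4.59 in all 8. Vcan of the dermal papilla list, a proteoglycan that fibroblasts also express, was at 9.28 in young and 9.15 in old cells. H2-Ab1 of the dendritic cell list was at 7.98 ± 0.41 and 8.41 ± 0.23, and Acta1 of the skeletal muscle list at 9.92 and 9.27. The 6 pericyte and smooth muscle markers tested, of which 1 was below the control level, had a mean of 5.64 to 5.82 in young and of 5.39 to 5.64 in old arrays. The lowest young and the highest old value of that mean were equal after rounding, and its members with the largest differences were Myh11 and Mcam, at -0.84 and -0.45. The part of such cells in other results was not tested.

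The largest pattern among the 8 arrays was not age. Principal component 1 (40.3% of the variance) placed replicates 1 and 2 of both ages on one side and replicates 3 and 4 of both ages on the other. Old cells scored -24.2, -11.4, 15.8 and 15.1 on it, and young cells -9.30, -6.97, 11.1 and 9.88, so the ages were balanced over the split. The SD of these scores was 19.9 in old and 10.8 in young cells. The difference between the ages on this component did not exceed the spread between arrays (exact permutation test, two-sided, p = 0.914), nor did that on the next, with 15.3% of the variance (p = 0.229, same exact test). The split follows the serial numbers in the sample titles, 1222 to 1225 against 1226 to 1229. The labels do not say whether these numbers stand for collection days, cultures or array runs. Correlations between pairs of the 8 arrays, over genes, ran from 0.984 to 0.995.

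**Figure D1:**
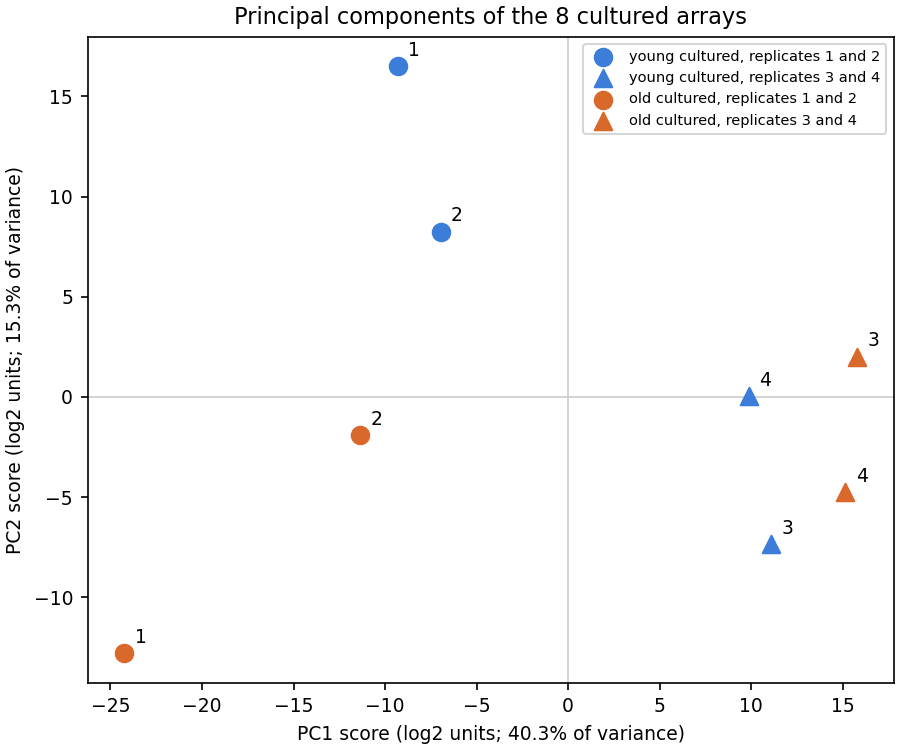
Scores of the 8 cultured arrays on the first (40.3% of variance) and second (15.3%) principal components over 14819 genes, in log2 units, with 1 point per array and its replicate number beside it. Replicates 1 and 2 of both ages lie on the left, replicates 3 and 4 of both ages on the right, and each side holds old and young arrays.

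Because the split was balanced over age, it could be taken out as a block, an alternative chosen after the data were seen. With the block, 883 genes had an unadjusted p under 0.05 against 533 without it, and again none was called by limma, with a smallest adjusted p of 0.19. Over the other settings the smallest adjusted p ran from 0.0723, with all 16 arrays in the fit, to 1. As a description, 77 genes differed by more than 2-fold between the replicates on either side of the split, against 18 between the ages. Pkp1, a desmosomal plaque protein, read 5.75 and 5.24 in young replicates 1 and 2 and 7.87 and 7.27 in young replicates 3 and 4. In old cells it read 4.00 and 4.46, then 7.84 and 7.34, the same order as in the young arrays. Hbegf, an epidermal growth factor receptor ligand, read 9.34, 9.30, 10.4 and 10.6 in young and 8.41, 9.10, 10.6 and 10.7 in old cells. The genes of this paragraph were picked for their difference across the split, so their values are a description.

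The 15 genes with the lowest p-values for age in culture had no overlap between the ages, with 13 lower and 2 higher in old cells, although none passed the adjusted test. Tcfl5, a basic helix-loop-helix transcription factor known from the testis, read 6.72, 5.67, 5.94 and 5.06 in young and 4.30, 4.14, 4.06 and 4.30 in old cells. All 4 old arrays lay below the control level of 4.34 and all young arrays above it. The young mean was 2.84-fold above the control level, a value that makes no allowance for the spread of the young arrays (SD 0.69). The fitted difference of the measured values was -1.65 (limma, unadjusted p = 0.000241), which rests on old values below the control level. Brinp1, a protein known to slow the cell cycle in neurons, read 5.82, 6.63, 5.94 and 6.29 in young and 3.80, 5.0, 5.34 and 3.72 in old cells. Old replicates 2 and 3 came close to the young range and old replicates 1 and 4 were below the control level. Its difference was -1.71 with an SE of 0.37 (interval -2.53 to -0.88). In vivo its probe set was near or below the control level at both ages, 4.02 ± 0.06 in young and 3.78 ± 0.06 in old cells.

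Perp, a p53 and p63 target found in desmosomes, read 6.11, 6.49, 5.87 and 5.25 in young and 4.57, 4.79, 5.06 and 4.59 in old cells. Its difference was -1.18 with an SE of 0.23 (interval -1.70 to -0.65). Perp is also 1 of the 10 keratinocyte markers tested, of which 6 were nominally lower and 4 higher in old cells with a list median of -0.01. After Perp the largest difference in that list was -0.20 for the desmosomal protein Dsp (interval -0.44 to 0.04), whose means were below the control level, and Krt14 differed by 0.06 (interval -0.07 to 0.19). B4galt6, which makes lactosylceramide, read 7.40, 7.78, 7.52 and 7.71 in young and 6.72, 6.56, 5.48 and 6.89 in old cells, with old replicate 3 the lowest. Its difference was -1.19 with an SE of 0.27. Glipr1, a p53-regulated secreted protein of the CAP family, differed by -1.07 with an SE of 0.25, from 6.41 ± 0.53 in young to 5.34 ± 0.28 in old cells. Hipk2, a nuclear kinase that phosphorylates p53, read 9.03, 8.57, 8.66 and 8.93 in young and 8.19, 8.03, 8.43 and 8.00 in old cells, a difference of -0.64 with an SE of 0.13.

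Tfap2a, which encodes the transcription factor AP-2 alpha, was the larger of the 2 genes that were higher in old cells. It read 4.85, 5.02, 5.08 and 4.9 in young cells, all within a narrow band, and 6.43, 7.11, 5.83 and 5.72 in old cells. The difference was 1.31 with an SE of 0.27 (interval 0.71 to 1.91; limma, unadjusted p = 0.000743). In vivo, Tfap2a was higher in old cells too, by 0.55 (limma, adjusted p = 0.0333), and the difference between the 2 age effects was not called (limma, adjusted p = 0.282). The other was Taz, the mouse symbol of tafazzin, which remodels the mitochondrial lipid cardiolipin and is distinct from the YAP partner of the same name. Its 8 values were tight, 4.88 to 4.97 in young and 5.14 to 5.21 in old cells, and the difference was 0.26 with an SE of 0.05.

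The remaining 7 of the 15 were lower in old cells with differences of -0.65 to -0.28. Lpcat2, which acylates lysophospholipids and makes platelet-activating factor, differed by -0.65 with an SE of 0.13. Fam107b differed by -0.43 with an SE of 0.09 and Cdc42ep3, an effector of the small GTPase Cdc42, by -0.41 with an SE of 0.08. Sgms2, a sphingomyelin synthase of the plasma membrane, differed by -0.38 with an SE of 0.08. The carotenoid-cleaving enzyme Bco2 was at 4.31 ± 0.10 in young and 3.98 ± 0.08 in old cells, below the control level in both. Nmt2, which attaches myristate to proteins, and Hs2st1, which sulfates heparan sulfate, differed by -0.29 and -0.28, the smallest differences of the 15 among genes lower in old cells.

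**Figure D2:**
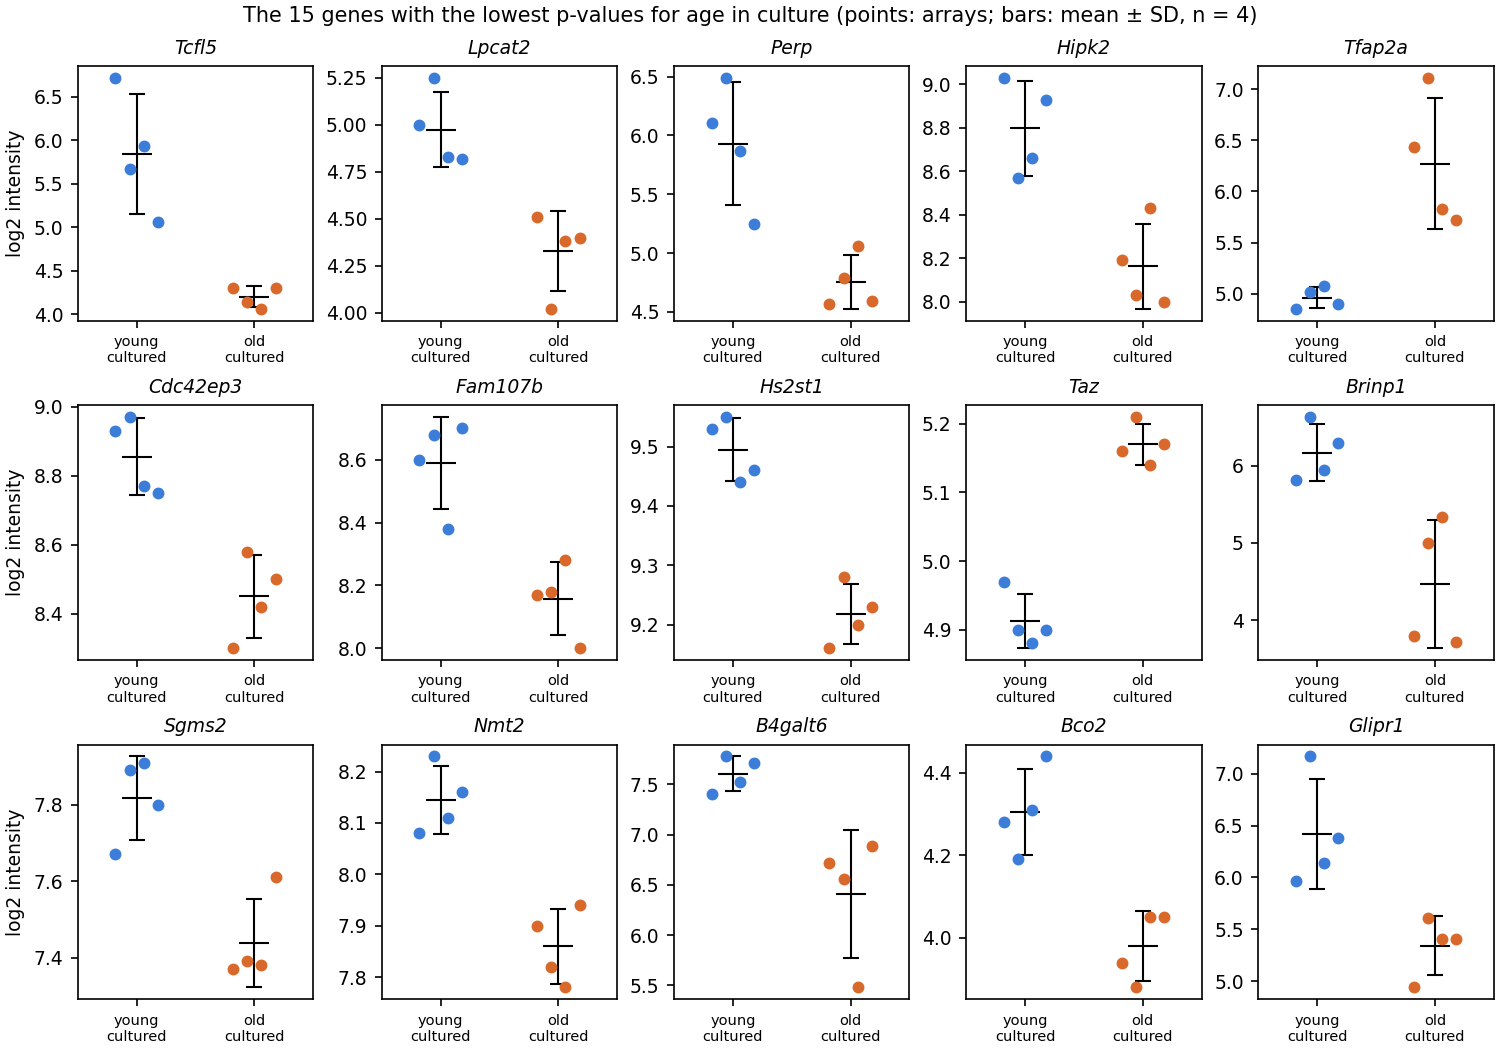
log2 intensity of the 15 genes with the lowest p-values for age in culture, 1 panel per gene with its own axis, young cultured arrays on the left and old on the right of each panel; points are arrays and bars the mean ± SD of 4. In each panel the points of the ages do not overlap, old cells are lower in 13 panels and higher in Tfap2a and Taz, and the differences run from 0.26 in Taz to 1.71 in Brinp1.

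A difference of more than 2-fold between the mean levels of the ages was seen for 18 genes, 0.121% of those tested, against 93 genes in vivo, 0.628%. These 18 were picked by that size and are described without support from it: 6 were higher and 12 lower in old cells, and the ages did not overlap for 7. Without old replicate 3 the count was 28, and without any other cultured array it was between 15 and 25. Besides Tcfl5, Brinp1, Perp, B4galt6, Glipr1 and Tfap2a, the seventh gene without overlap was Gjb2, the gap junction protein connexin 26. It read 7.74, 8.07, 8.69 and 7.89 in young and 7.71, 6.20, 7.45 and 6.57 in old cells. Old replicate 1 was only 0.03 below the lowest young array. Hoxa10 and Fgl2 were the 2 genes more than 2-fold apart both in culture and in vivo.

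Several of the 18 differed between the ages on 1 side of the array split only. Cxcl14, a chemokine of the skin, read 7.71, 8.25, 4.36 and 6.36 in old and 4.81, 4.40, 7.23 and 4.17 in young cells. Old replicates 1 and 2 were the highest, and a young array, replicate 3, came next. Col2a1, the cartilage collagen, read 9.99, 7.89, 5.48 and 5.41 in old cells, while the young arrays stayed between 5.08 and 6.28. Dlk1, an imprinted inhibitor of adipocyte formation, read 8.86, 7.59, 5.68 and 5.22 in old cells against 4.89 to 6.18 in young cells. Within replicates 1 and 2 the age differences of these genes were 3.38, 3.56 and 2.69, and within replicates 3 and 4 they were -0.34, -0.74 and -0.31. None of the 3 had an unadjusted p under 0.05. In the other direction, the amino acid transporter Slc38a4 read 5.14 in old replicate 4 and between 7.94 and 10.28 in the other 7 arrays, and its mean difference of -1.02 was -0.02 without that array. Ptgis, which makes prostacyclin, differed by -0.13 within replicates 1 and 2 and by -2.03 within replicates 3 and 4. Its old replicates 3 and 4 read 4.30 and 4.29, below the control level.

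The rest of the 18 differed in the same direction on both sides of the split. Csgalnact1, which starts chondroitin sulfate chains, read 7.03, 5.59, 6.86 and 5.99 in young and 7.54, 7.57, 6.93 and 7.5 in old cells. Old replicate 3 fell inside the young range, and the difference was 1.02 with an SE of 0.31. Fgl2, a secreted fibrinogen-like protein, read 5.21, 5.61, 5.63 and 6.19 in young and 4.13, 4.48, 5.49 and 3.97 in old cells. Again old replicate 3 was inside the young range, and old replicates 1 and 4 were below the control level. C1qtnf3, an adipokine of the C1q family, Tll1, a protease that processes procollagen, and Cd24a, a surface glycoprotein, differed by -1.01, -1.01 and -1.0. For Cd24a the interval ran from -2.64 to 0.64. Old replicate 4 of C1qtnf3 and of Cd24a was below the control level, at 4.20 and 4.25.

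The 200 genes called for age in vivo were then followed into culture. Of these, 198 had a smaller age difference in culture than in vivo, the exceptions being Hoxa10 and Tfap2a. The median size of the difference was 0.76 in vivo and 0.09 in culture. The sign was the same in both for 112 genes, 56%. For 185 of the 200 the in vivo difference lay outside the 95% interval of the difference in culture, including 172 of the 186 that were at or above the control level in at least 1 cultured group. Of those 186, the culture interval excluded a 2-fold difference in either direction for 175. The other 14 of the 200 were below the control level in both cultured groups, where a narrow interval sets no bound on the transcript. The in vivo genes were selected for a large in vivo difference, which by itself makes the second measurement smaller on average, so the test of the gap is the interaction. Fitted on all 16 arrays, the age difference in culture minus that in vivo was called for 87 genes, 0.587% of those tested, 29 higher and 58 lower (limma, adjusted p under 0.05). With the arrays scaled to an equal 75th percentile the split was 52 higher and 41 lower. Of the 87, 77 were among the 200 and 85 had the smaller difference in culture. At or above the control level in at least 1 cultured group were 81 of the 87. The counts moved with single arrays. The interaction count was between 44, without young cultured replicate 4, and 200, without old in vivo replicate 1. Without old in vivo replicate 1, 306 genes were called in vivo, of which 302 were smaller in culture, and without young in vivo replicate 2 there were 60, all smaller in culture.

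**Figure D3:**
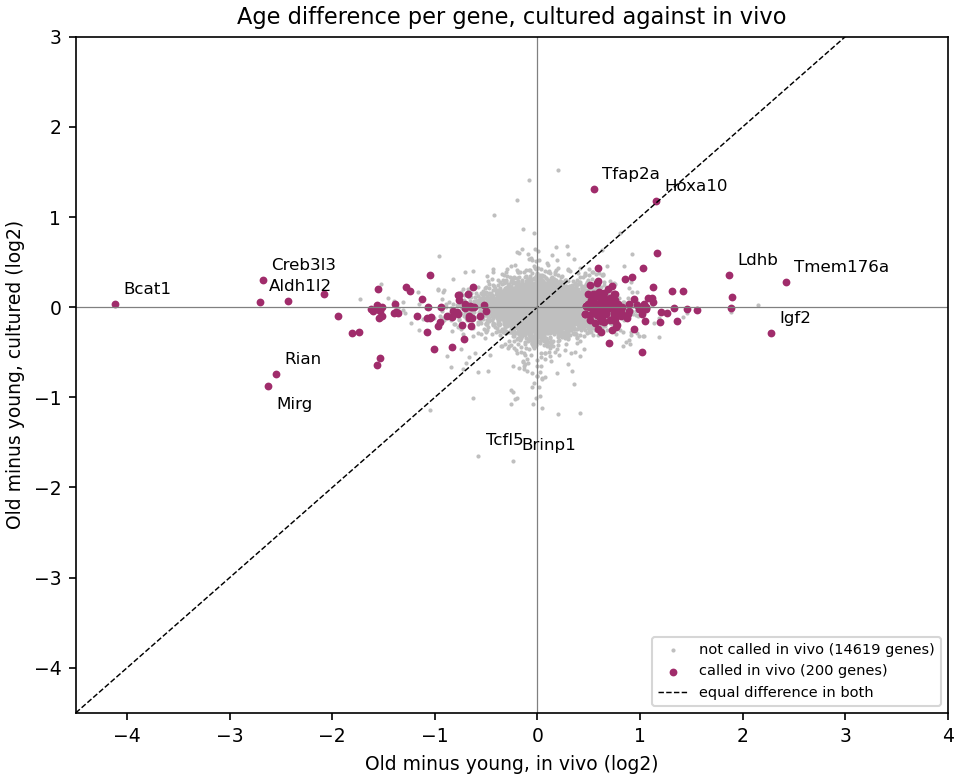
Age difference (old minus young, log2) of each of 14819 genes in vivo on the horizontal axis and in culture on the vertical axis; coloured points are the 200 genes called in vivo, grey points the others, and the dashed line marks equal differences. The 200 genes spread from -4.12 to 2.42 along the horizontal axis, and most lie close to 0 on the vertical axis. Hoxa10 lies on the dashed line and Tfap2a above it.

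Most genes with the largest in vivo differences had small age differences in culture with narrow intervals. Apold1, which differed by -1.74 in vivo, differed by -0.28 in culture with a wide interval, -1.98 to 1.42, that holds the in vivo value. Its young cultured arrays read 4.41, 5.04, 8.03 and 7.13. Rian and Mirg, described further below, had wide intervals too. Bcat1, which takes the amino group off branched-chain amino acids in the cytosol, was lower in old cells in vivo, with a difference of -4.12. In culture it read 10.80, 10.68, 10.87 and 10.70 in young and 10.75, 10.89, 10.69 and 10.86 in old cells. The difference was 0.04 (interval -0.13 to 0.20), and the interaction was 4.15 with an SE of 0.25 (limma, adjusted p = 6.23e-08). Both cultured groups lay above both in vivo groups, which were at 8.6 ± 0.42 in young and 4.48 ± 0.31 in old cells. Aldh1l2, the mitochondrial formyltetrahydrofolate dehydrogenase, had the same pattern, with a difference of -2.7 in vivo and of 0.06 in culture (interval -0.14 to 0.26), at 8.92 ± 0.16 in young and 8.98 ± 0.10 in old cells.

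Creb3l3, a membrane-bound transcription factor of the CREB family, was lower in old cells in vivo, with a difference of -2.67, and was on the opposite side in culture. It read 5.23, 5.43, 5.39 and 5.36 in young and 6.02, 5.61, 5.54 and 5.43 in old cells, with old replicate 4 equal to the highest young value. The culture difference was 0.30 (interval 0.03 to 0.57), and the cultured levels of both ages were below the old in vivo level of 6.06 ± 0.17. Cgref1, a calcium-binding growth regulator, differed by -2.08 in vivo and by 0.15 in culture. Camk2a, a calmodulin-dependent kinase, and Rassf4, a Ras-association protein, were lower in old cells in vivo, with differences of -1.95 and -2.43. In culture Camk2a differed by -0.10 (interval -0.37 to 0.17), with Rassf4 between 3.12 and 3.68 in all 8 arrays, below the control level of 4.34.

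Of the genes higher in old cells in vivo, several were below or near the control level in culture at both ages, where an age difference is hard to see. Scin, the actin-severing protein scinderin, was 1.89 higher in old cells in vivo and read between 3.43 and 3.70 in the 8 cultured arrays. Gm15241, a predicted gene, was between 3.85 and 4.11 in culture, and Ntng1, the membrane-anchored netrin G1, between 4.27 and 4.67. Other genes of this kind were above the control level in culture. Igf2, the fetal growth factor, was 2.28 higher in old cells in vivo, at 9.39 ± 0.54 against 7.12 ± 0.15. In culture it read 5.16, 5.59, 5.70 and 5.37 in young and 5.29, 5.23, 5.14 and 5.01 in old cells, where the ages overlapped and the difference was -0.29 (interval -0.56 to -0.02). Its interaction was -2.56 with an SE of 0.28 (limma, adjusted p = 0.000124).

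Cd109, a TGF-beta co-receptor, was 1.36 higher in old cells in vivo and read 8.25 to 8.71 in young and 8.07 to 8.49 in old cultured cells, a difference of -0.16 (interval -0.44 to 0.13). Plaat3, a phospholipase A and acyltransferase, and Syp, the vesicle protein synaptophysin, differed in culture by -0.03 each, with intervals of -0.22 to 0.17 and -0.26 to 0.20. The membrane proteins Tmem176a and Tmem176b were 2.42 and 1.42 higher in old cells in vivo. In culture they differed by 0.28 (interval -0.48 to 1.04) and 0.18 (interval -0.33 to 0.69), which leaves differences of close to 2-fold possible for Tmem176a. The interaction was not called for either (limma, adjusted p = 0.0755 and 0.115).

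**Figure D4:**
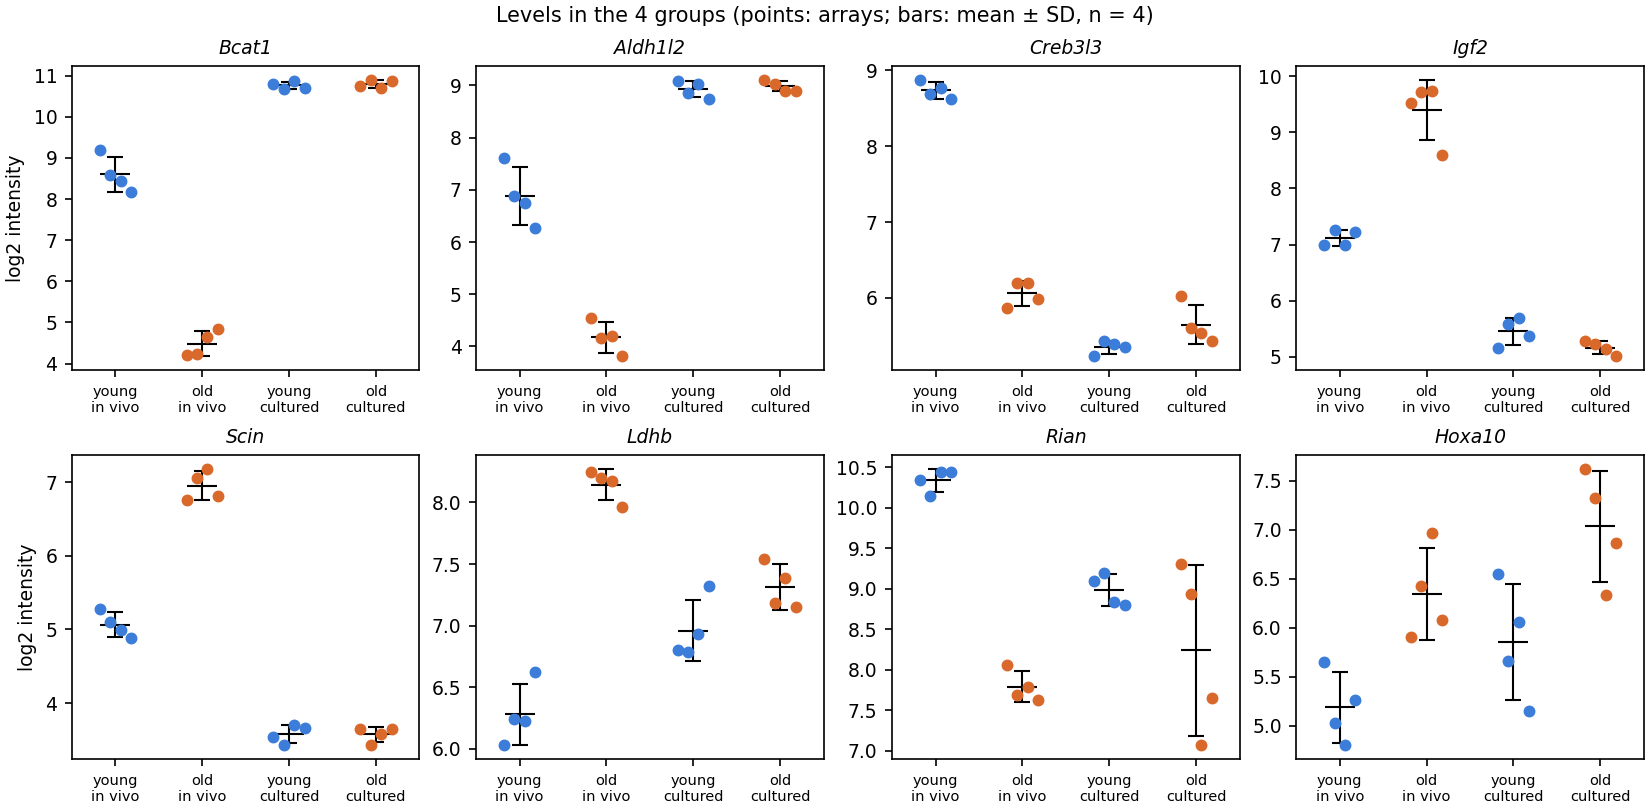
log2 intensity of 8 genes called for age in vivo in the 4 groups, 1 panel per gene with its own axis; points are arrays and bars the mean ± SD of 4 per group. Bcat1, Aldh1l2, Creb3l3, Igf2 and Scin are wide apart between the ages in vivo and overlap or nearly overlap in culture, Ldhb overlaps too with old cells 0.36 higher on average, Rian is low in 2 of the 4 old cultured arrays, and Hoxa10 is higher in old cells in both conditions.

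Among the 200 in vivo genes, 8 had an unadjusted p under 0.05 in culture in the in vivo direction and 8 in the opposite direction. Among all genes tested the share at that p was 1.96% for old higher and 1.63% for old lower. The 8 in the same direction were Hoxa10, Ldhb, Miat, Peg3, Prkar1b, Samd9l, Srpx2 and Tfap2a, named after their values were seen. Hoxa10, a homeobox gene of posterior position, read 6.55, 5.66, 6.06 and 5.15 in young and 7.62, 7.32, 6.33 and 6.86 in old cells, where old replicate 3 was inside the young range. The difference was 1.18 with an SE of 0.33 in culture (interval 0.43 to 1.93) and 1.16 in vivo (limma, adjusted p = 0.0473), with an interaction of 0.02. Srpx2, a secreted sushi-domain protein, read 7.41, 6.74, 7.2 and 7.48 in young and 7.95, 7.66, 8.00 and 7.61 in old cells with no overlap. Its difference was 0.60 in culture and 1.17 in vivo.

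Peg3, a paternally expressed zinc finger gene, read 4.79, 4.38, 4.08 and 4.27 in young and 3.89, 4.15, 3.72 and 3.52 in old cells. All old values and 2 young values were below the control level, so the measured difference of -0.56 has no clear size, and it was -1.53 in vivo. Ldhb, the heart-type lactate dehydrogenase subunit, was 0.36 higher in old cultured cells (interval 0.05 to 0.66) and 1.87 higher in old cells in vivo, and the difference between the effects was called at -1.51 (limma, adjusted p = 0.000883). Prkar1b, a regulatory subunit of protein kinase A, and Samd9l, an interferon-induced gene, differed by 0.44 and 0.44 in culture and by 1.03 and 0.59 in vivo, with all 8 cultured values of Samd9l below the control level. The long noncoding RNA Miat differed by -0.29 in culture and by -1.81 in vivo. The 8 in the opposite direction were Creb3l3, Igf2, Gclm, Ntn4, Slc39a7, Slc9a3r1, Snhg6 and Snrpb2. Their culture differences were from 0.16 to 0.50 in size.

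Noncoding RNAs of the imprinted Dlk1 and Meg3 region showed the in vivo direction in 2 old cultured arrays and not in the other 2. Rian, 1 of these maternally expressed RNAs, was lower in old cells in vivo, with a difference of -2.55. In culture it read 9.10, 9.20, 8.84 and 8.80 in young and 9.31, 8.93, 7.07 and 7.65 in old cells. Mirg, from the same region, read 7.79, 8.06, 7.61 and 7.64 in young and 8.08, 7.86, 5.26 and 6.41 in old cells. Old replicates 3 and 4 were below every young array for both RNAs, and old replicates 1 and 2 lay within or above the young range. The mean differences were -0.75 (interval -1.72 to 0.23) for Rian and -0.87 (interval -2.09 to 0.34) for Mirg, neither with an unadjusted p under 0.05. With the block for the array split the unadjusted p was 0.0235 and 0.0443 by limma, and the adjusted p was 0.83 for both. The block takes the age difference to be equal on both sides of the split. Within replicates 1 and 2 and within replicates 3 and 4 it was -0.03 and -1.46 for Rian, and 0.045 and -1.79 for Mirg. The interaction was not called for either (limma, adjusted p = 0.102 and 0.241).

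Gene lists for 37 pathways and fibroblast classes, with 615 genes tested among them, held no member called in culture. An unadjusted p under 0.05 was reached by 28 of the 615, 4.55%, against 3.6% of all genes, with 12 higher and 16 lower in old cells. For 36 of the 37 lists the median difference in culture was under 0.1 in size, and the median of all genes was 0.00. In vivo the medians of the same lists ran from -0.47 to 0.34, with 27 of the 615 genes called, where 1.35% of all genes tested were called. These in vivo medians were not recomputed with other scaling. Scaling to an equal 75th percentile moved the in vivo median of all genes from 0.015 to -0.055. The 95% interval of the culture difference lay within 2-fold for 575 of the 615, 93.5%, against 98.6% of all genes tested. Both shares include genes below the control level, where an interval sets no bound.

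**Figure D5:**
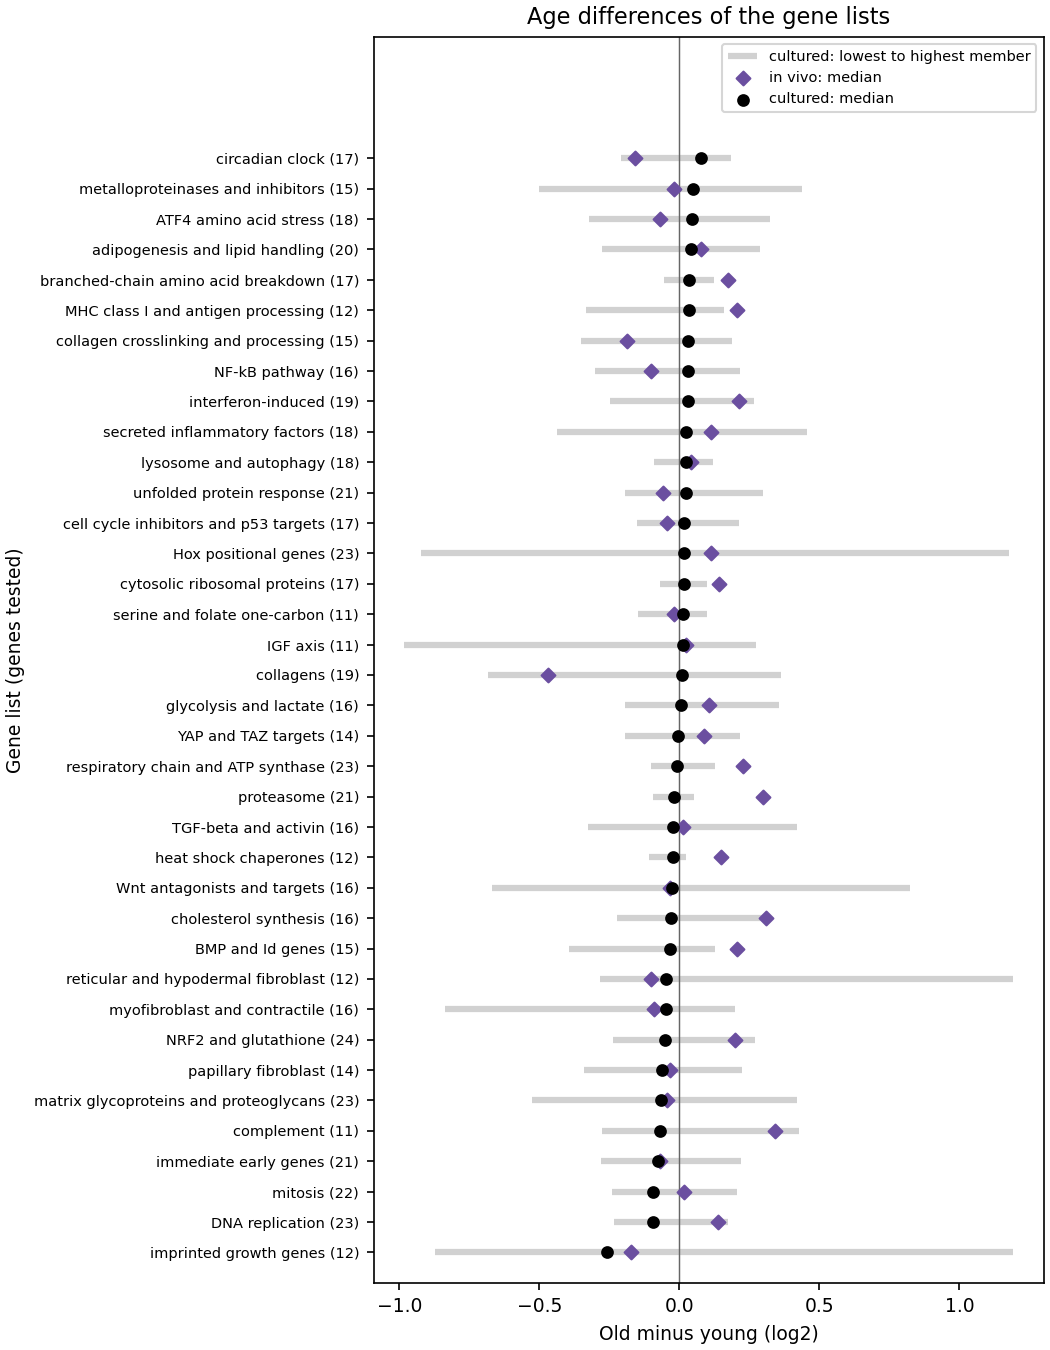
Age difference (old minus young, log2) of 37 gene lists, with the number of genes tested in parentheses; black points are medians in culture, diamonds medians in vivo and grey bars run from the lowest to the highest member in culture. All culture medians but that of the imprinted growth genes lie within 0.1 of 0, while in vivo medians reach from -0.47 for collagens to 0.34 for complement.

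Matrix genes were at like levels in both ages in culture. Of 19 collagen chains, 11 were nominally higher and 8 lower in old cells, with a median of 0.01. In vivo their median was -0.47 and 6 chains were lower at the adjusted threshold, where 1.35% of all genes tested were called. Col1a1 and Col3a1, the main fibrillar chains of the dermis, differed by 0.01 each, with intervals of -0.11 to 0.14 and -0.15 to 0.17. The exception in size was Col15a1, a basement membrane zone collagen, which read 9.65, 9.48, 9.79 and 9.53 in young and 9.13, 9.27, 8.41 and 8.90 in old cells. The ages did not overlap, and the difference was -0.69 with an SE of 0.17, close to the in vivo value of -0.73, which was not called either (limma, adjusted p = 0.0917). Col8a1, a short-chain collagen of vessel walls and wounds, differed by -0.23 with an SE of 0.09. The 15 crosslinking and processing genes tested had a median of 0.03, and their lowest p was that of Pcolce2, an enhancer of procollagen processing, at a difference of -0.35 (interval -0.75 to 0.05).

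Among 23 matrix glycoproteins and proteoglycans, 14 were nominally lower in old cells, with a median of -0.07. Lum and Dcn, which encode the collagen-binding proteoglycans lumican and decorin, differed by -0.40 (interval -0.82 to 0.02) and -0.23 (interval -0.50 to 0.05). The metalloproteinases and their inhibitors had a median of 0.05 over 15 genes, and the gelatinase Mmp2 differed by -0.20 (interval -0.41 to 0.00).

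Of the 16 contractile genes tested, the ages did not overlap for Myh11 and Actn1, the latter with a difference of -0.08 (interval -0.21 to 0.05). Over all genes tested the ages did not overlap for 2.06%. Myh11, the smooth muscle myosin heavy chain, read 9.47, 9.61, 8.93 and 8.99 in young and 8.66, 8.66, 8.53 and 7.80 in old cells. No old array reached the lowest young array, and the difference was -0.84 with an SE of 0.22 (interval -1.34 to -0.34; limma, unadjusted p = 0.00408). In vivo Myh11 differed by -0.03. Acta2, the actin of contractile myofibroblasts, lay between 12.07 and 12.19 in all 8 arrays and differed by 0.00 (interval -0.13 to 0.13). Actg2 and Acta1, the enteric smooth muscle and skeletal muscle actins, differed by -0.49 (interval -1.12 to 0.13) and -0.65 (interval -1.23 to -0.07), with old replicate 1 the lowest for both. Over the 16 contractile genes the median was -0.05. The 14 YAP and TAZ target genes tested had a median of -0.01, with Crim1, a transmembrane BMP-binding protein, at -0.20 and Amotl2, an angiomotin that restrains YAP, at 0.15.

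Signalling lists were centred near 0. In the TGF-beta and activin list, Ltbp2, a latent TGF-beta binding family member, was 0.42 higher in old cells (interval 0.05 to 0.79) and the receptor Tgfbr1 differed by -0.27 (interval -0.52 to -0.01), with a list median of -0.02. The ligand Bmp4 differed by -0.40 (interval -0.74 to -0.05), in a list of 15 BMP and Id genes with a median of -0.03. In the IGF axis, Igfbp2, a secreted binding protein, read 9.73, 9.44, 9.92 and 9.51 in young and 7.80, 8.98, 9.77 and 8.12 in old cells. Old replicate 3 lay inside the young range and the difference was -0.98 with an SE of 0.37 (interval -1.82 to -0.15). Igf1 itself differed by 0.28 (interval -0.32 to 0.87). The 16 Wnt antagonists and targets tested had a median of -0.03 and no member with an unadjusted p under 0.05.

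The 12 imprinted growth genes tested had the list median farthest from 0, at -0.26, with 9 nominally lower in old cells. Their members ran from -0.87 for Mirg to 1.19 for Dlk1, which lie in the same imprinted region. The mean of the list over the old arrays ran from 6.67 to 7.77 and over the young arrays from 7.27 to 7.55, so old arrays lay on both sides of the young ones. In vivo the median was -0.17, with 5 members lower and 1 higher at the adjusted threshold, where 1.35% of all genes tested were called. The Hox list had a median of 0.02 over 23 genes and a wide range, from -0.92 to 1.18. Of its members 5 had an unadjusted p under 0.05, 3 higher and 2 lower, against 3.6% of all genes tested. Hoxc4, an anterior gene of the C cluster, read 6.60, 6.66, 6.54 and 6.79 in young and 6.60, 6.31, 6.18 and 5.78 in old cells.

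No gene of cell division was called. Of 23 DNA replication genes, 18 were nominally lower in old cells, with a median of -0.10, where 48.6% of all genes tested were nominally lower. Of 22 mitosis genes, 16 were nominally lower, with a median of -0.09. Without old replicate 3 these medians were 0.03 and -0.01. The mean level over the replication genes was 7.97 to 8.34 in young arrays and 7.73 to 8.42 in old arrays, so the ages overlapped. Cyclin A2, from Ccna2, differed by -0.16 (interval -0.32 to 0.00), and Ube2c, which acts with the anaphase-promoting complex, by -0.19 (interval -0.38 to 0.00). The proliferation marker Mki67 differed by -0.03 (interval -0.29 to 0.24). Genes of a list that share a cell cycle phase are not independent of each other.

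No gene linked to senescence passed the test in culture. Cdkn1a, which encodes the cell cycle inhibitor p21, differed by 0.01 (interval -0.24 to 0.26). Cdkn2a, which encodes p16 and a second product from the same locus, read 5.13, 5.43, 4.49 and 5.60 in young and 5.14, 5.29, 5.92 and 5.15 in old cells, with full overlap and a difference of 0.21 (interval -0.35 to 0.78). That interval reaches past a 1.5-fold difference. Over 17 inhibitors and p53 targets the median was 0.02 and no member had an unadjusted p under 0.05 in culture. The cell cycle inhibitor gene Cdkn2b was 0.58 higher in old cells in vivo (limma, adjusted p = 0.0489). In culture it differed by 0.14 (interval -0.37 to 0.64), an interval that holds the in vivo value. Among 18 secreted inflammatory factors the median was 0.03. Ccl2, a monocyte chemokine, differed by 0.35 (interval -0.21 to 0.91), and Il6 lay between 3.18 and 3.50 in all 8 arrays, below the control level. The eosinophil chemokine Ccl11 differed by -0.23 (interval -0.44 to -0.02).

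Immune lists had larger medians in vivo than in culture, with few or no members called in vivo. The 11 complement genes tested had a median of 0.34 in vivo and of -0.07 in culture. In vivo 3 members were higher at the adjusted threshold, where 1.35% of all genes tested were called. The 19 interferon-induced genes tested had medians of 0.21 in vivo and 0.03 in culture, and the 12 MHC class I and antigen processing genes 0.21 and 0.04, with 0 members called in vivo in either list. No member of these lists other than Cd55, a complement inhibitor on the cell surface, had an unadjusted p under 0.05 in culture, and Cd55 differed by -0.28 (interval -0.53 to -0.02).

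Lists of protein and energy metabolism had smaller medians in culture than in vivo. The 21 proteasome subunits tested had a median of 0.30 in vivo and of -0.02 in culture, where all members lay between -0.10 and 0.05. The 23 respiratory chain and ATP synthase subunits had medians of 0.23 and -0.01, with Ndufv1, a complex I subunit, at 0.13 in culture (interval 0.00 to 0.25). The 16 cholesterol synthesis genes had medians of 0.31 and -0.03, and the 24 NRF2 and glutathione genes 0.20 and -0.05. Called in vivo were 0 members of the proteasome, respiratory chain and cholesterol lists, and 2 of the NRF2 and glutathione list. In the last list Gclm, the regulatory subunit of the enzyme that starts glutathione synthesis, read 8.55, 8.45, 8.27 and 8.51 in young and 8.08, 8.30, 8.23 and 8.22 in old cells. Its difference was -0.24 with an SE of 0.08 in culture and 0.60 in vivo (limma, adjusted p = 0.0216), and the gap between these was called at -0.83 (limma, adjusted p = 0.003).

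Amino acid genes had 2 members with an unadjusted p under 0.05 in the ATF4 list, both nominally higher in old cells. Among all genes tested 3.6% had such a p. Atf5, a stress-induced transcription factor, read 7.60, 7.82, 7.82 and 7.57 in young and 7.87, 8.00, 8.10 and 8.02 in old cells with no overlap, a difference of 0.30 with an SE of 0.08. Trib3, a pseudokinase induced by ATF4, differed by 0.33 with an SE of 0.12. The median over the 18 genes tested was 0.05. The 17 genes of branched-chain amino acid breakdown had a median of 0.04 and a range of -0.06 to 0.13, and the 11 serine and folate genes a median of 0.01 and a range of -0.15 to 0.10.

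Other lists had no member with an unadjusted p under 0.05, namely the 21 immediate early genes (median -0.08), 17 circadian clock genes (0.08), 12 heat shock chaperones (-0.02), 18 lysosome and autophagy genes (0.03), 17 cytosolic ribosomal proteins (0.02) and 16 NF-kB pathway genes (0.03). Among 20 adipogenesis and lipid handling genes the triglyceride-making enzyme Dgat1 was 0.22 higher in old cells (interval 0.01 to 0.42). Among 21 unfolded protein response genes only Creb3l3 had such a p. The papillary fibroblast genes, of the upper dermis, had a median of -0.06 over 14 genes, and the reticular and hypodermal genes, of the lower dermis, -0.05 over 12.

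Among the fibroblast markers, Pdgfrb, the receptor for platelet-derived growth factor B, was nominally higher in old cells. It read 9.15, 9.09, 9.11 and 9.10 in young and 9.61, 9.44, 9.30 and 9.30 in old cells with no overlap, a difference of 0.30 with an SE of 0.08 (limma, unadjusted p = 0.00401). It is also expressed by pericytes, and of the 6 pericyte and smooth muscle markers tested 5 were nominally lower and 1 higher in old cells. The part of such cells in the Pdgfrb difference was not tested.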

How the data were processed

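The values were the authors' deposited log2 intensities of 45141 probe sets on 16 arrays, made with RMA in the affy package per the submitters' processing notes, so background correction, quantile normalization over arrays and probe summarization had been done before deposit. Quantile normalization, which acts on probes before summarization, can hide a change shared by most genes, and over probe sets the deposited array medians ran from 4.74 to 4.92. Their versions are not stated in the labels.

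Gene names came from the platform annotation, in which 28898 probe sets had 1 symbol, 551 had several and 15588 were not listed. Symbols were updated by gene ID through RefSeq for 28689 probe sets. Each of 17097 symbols was represented by its brightest probe set, by the mean of the 16 arrays. Genes entered the tests when 4 or more of the 16 arrays exceeded 3.87, the 25th percentile of all values. Old minus young was tested with limma 3.58.1 in R 4.3.3, two-sided, with Benjamini-Hochberg adjustment at 0.05, on the 8 cultured arrays, on the 8 in vivo arrays, and as an interaction on all 16. Cultured and in vivo arrays come from the same mice, which the fit of all 16 could not pair. The fit was tested on simulated data. No pair of arrays held identical values. P-values measure only the spread between these samples.

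The comparison, the gene lists and the members were chosen with earlier results of these data known. Named genes were the 15 with the lowest p in culture (since fewer than 10 were called). Also named were the 10 largest in vivo differences each way and the 8 largest called interactions. Of each list, its called members or otherwise the 2 with the lowest p were to be named. No list member was called, and for several lists fewer than 2 members or none are named. Further genes were chosen after their values were seen, among them those over 2-fold apart, those that differ across the array split and known markers. Alternatives covered scaling, the low-value filter, probe sets per gene, moderation, array weights, the arrays in the fit, a block and leaving out each array. The number of arrays limits the precision.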

Additional observations from a re-analysis of the deposited data

Results flagged for a closer look

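In 2 of 118 sets of 4 cultured arrays examined, 1 array lay far from the other 3, by Dixon's test with a critical value of 0.829. Chance alone gives about 1 in 20. Sgms2 read 7.61 in old replicate 4 against 7.37 to 7.39 in the other old arrays, still below the lowest young value of 7.67. Csgalnact1 read 6.93 in old replicate 3 against 7.5 to 7.57, which placed that array inside the young range.

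For 23 of the named genes the age difference in culture and the age difference in vivo were themselves different, by the interaction in limma on all 16 arrays. Many named genes were chosen by their interaction or in vivo difference in these same arrays, so this count is a description. Among all genes tested the interaction was called for 87, 0.587%. The values that follow are the culture difference minus the in vivo difference, on the log2 scale. They were above 0 for Bcat1 (4.15), Creb3l3 (2.97), Aldh1l2 (2.76), Rassf4 (2.50), Cgref1 (2.23), Camk2a (1.84), Miat (1.52) and the zinc transporter gene Slc39a7 (0.86), all lower in old cells in vivo. They were below 0 for Igf2 (-2.56), Scin (-1.90), Ntng1 (-1.79), Syp (-1.59), Cd109 (-1.52), Ldhb (-1.51), Plaat3 (-1.48) and Gm15241 (-1.34), all higher in old cells in vivo. Scin, Gm15241 and Rassf4 were below the control level in all cultured arrays, so their culture differences carry no bound. The scaffold protein gene Slc9a3r1 (-1.52), the netrin Ntn4 (-1.10), the spliceosome gene Snrpb2 (-0.99), Gclm (-0.83) and the noncoding RNA Snhg6 (-0.77) were higher in old cells in vivo and nominally lower in culture. Fam107b (-1.27) and Hipk2 (-0.93) were not called in either condition alone. Hipk2 differed by 0.30 in vivo and by -0.64 in culture, and Fam107b by 0.83 and by -0.43.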

How the results depend on the processing

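No paired analysis was possible because the labels give the arrays no shared replicate numbers and do not say which arrays share a mouse or a day. No gene was called for age in culture at an adjusted p of 0.05 under any planned or added alternative. At 0.1 none was called with the 8 cultured arrays, and 3 were with all 16 arrays in the fit, Brinp1, Tcfl5 and Tfap2a. Leaving out each cultured array in turn gave 453 to 641 genes with an unadjusted p under 0.05, and a smallest adjusted p of 0.219. The in vivo count of 200 was 900 with all 16 arrays in the fit. Leaving out each in vivo array gave 60 to 306 genes called in vivo: 60 without young replicate 2, 66 without old replicate 2, 67 without young replicate 3, 96 without young replicate 4, 100 without old replicate 3, 118 without old replicate 4, 132 without young replicate 1 and 306 without old replicate 1. The interaction count of 87 ran from 44 to 200: it was 44 without young cultured replicate 4, 48 without old cultured replicate 2, 53 without old cultured replicate 4, 55 without young cultured replicate 1 and also without young cultured replicate 2, 161 without young in vivo replicate 1 and 200 without old in vivo replicate 1. The cause was not tested. Of 56 counts under alternatives 16 moved by over 1.5 times. Of 1554 differences and list medians in culture, none of them called, 80 had another sign than reported, over 31 results, and 8 list medians moved by more than the spread between replicates, each with 1 cultured array left out. The block for the title numbers, the weight per condition and each probe set on its own were chosen after seeing the data. With the block the interaction count was 105 and the in vivo count 165. A probe set near the control level bounds no difference in either direction.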

Other observations

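The replicates on either side of the array split in culture are described here by a few genes. They were picked from these same arrays by their p-value or size of difference across the split. No test result is given for them, because the split was chosen from these arrays. Vegfa, the vascular growth factor, was 1.05 higher in replicates 3 and 4 than in replicates 1 and 2, on the log2 scale, and the clock and hypoxia-linked repressor Bhlhe40 1.43 higher. Itga5, the fibronectin receptor subunit, was 1.21 higher and the cytokine Lif 0.93 higher, while Spry1, an inhibitor of receptor tyrosine kinase signalling, differed by -1.04. Tnmd, the tendon membrane protein tenomodulin, read 6.89, 7.71, 6.20 and 6.72 in young and 8.87, 8.30, 4.65 and 5.65 in old cells. Its old values lay both above and below all young values. The Wnt antagonist Sfrp1 read 9.16, 7.74, 4.98 and 5.14 in old cells and 5.65 to 6.26 in young cells, the same pattern. Ptx3, a secreted pattern recognition protein, read 9.77, 9.57, 5.47 and 7.45 in old and 7.66 to 8.39 in young cells. Over all genes, the age differences within replicates 1 and 2 and within replicates 3 and 4 had a correlation of -0.09 across 14819 genes. The age differences in culture and in vivo, which come from different arrays of the same mice, had a correlation of -0.0017 across the same genes.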
